A study of Homo sapiens with 2 samples.

Results

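The 10 genes described here build, divide and supply the mitochondrial network: the fission genes DNM1L, FIS1, MFF and MIEF1, the fusion genes MFN1, MFN2 and OPA1, the inner membrane protease genes OMA1 and YME1L1, and TFAM, the packaging and transcription factor of mitochondrial DNA. They were chosen by name, and all 10 were found among the 23321 genes of the deposited table, 1 row each. The cells were AGS, an established human gastric adenocarcinoma line, sampled at 2 weeks. The AGS-GGT7 cells had been stably transfected with a plasmid for ectopic expression of GGT7, which belongs to the gamma-glutamyltransferases. The AGS-ctrl cells had been stably transfected with a negative control plasmid and are labelled WT in genotype. The labels give neither the promoter of the plasmid nor whether the lines were pools or single clones. Total RNA was sequenced once per group, so each value below is that of 1 library, nothing shows how far 2 cultures of 1 kind would differ and no test was run.

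Mitochondria form a network that is continually cut and rejoined. In fission, the dynamin-like GTPase encoded by DNM1L (DRP1) is recruited from the cytosol to adaptors in the outer membrane and constricts the organelle. In fusion, mitofusins join the outer membranes and OPA1 joins the inner membranes, and the proteases OMA1 and YME1L1 cut OPA1 into long and short forms that set how much fusion takes place. Fission can separate a damaged piece for mitophagy, the removal of mitochondria by autophagy, which the title of the series names together with GGT7 and the small GTPase RAB7. RNA levels show neither the cleavage of OPA1 nor the phosphorylation of DRP1 nor the shape of mitochondria, none of which were measured here.

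The summed counts were 10289206 in the AGS-GGT7 library and 13482913 in the AGS-ctrl library. GGT7 itself had 470 counts (12.2 FPKM) in AGS-GGT7 cells, against 90 counts (1.78 FPKM) in AGS-ctrl cells, 6.84-fold higher, with plasmid and chromosomal transcripts not separated. FPKM corrects the fragment count of a gene for its length and for the size of the library. Of the 9 epithelial markers with values, 8 reached 1 FPKM, led by the keratin gene KRT18 at 117 FPKM in AGS-GGT7 cells and 111 FPKM in AGS-ctrl cells, with KRT7 and the claudin gene CLDN7 also above the control (ratios of 1.21 and 1.47) and KRT8 and EPCAM below it (0.65 and 0.68). CDH1, the E-cadherin gene, was under 1 FPKM in both libraries, at 0.78 FPKM in AGS-GGT7 cells and 0.48 FPKM in AGS-ctrl cells. The leukocyte gene PTPRC had 5 counts in each library, LYZ had 0 in AGS-GGT7 cells and 2 in AGS-ctrl cells, and the summed leukocyte markers came to 6.71 FPKM in AGS-GGT7 cells and 1.63 FPKM in AGS-ctrl cells, nearly all of it CD68, a lysosomal membrane protein (6.08 and 1.11 FPKM). Stromal markers summed to 6.21 FPKM in AGS-GGT7 cells and 7.91 FPKM in AGS-ctrl cells, with COL1A1 and LUM at ratios of 0.65 and 0.80 and, under 1 FPKM in both libraries, COL3A1 at 24 counts in AGS-GGT7 cells and 18 in AGS-ctrl cells and PDGFRB at 27 and 23, and endothelial markers to 2.04 and 2.25 FPKM. The part of these marker differences in the values below was not tested.

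The RNA of the fission and fusion machinery differed little between the libraries. The ratio of AGS-GGT7 to AGS-ctrl ranged from 0.86 for OPA1 to 1.09 for TFAM. None of the 10 genes was 1.5-fold or more higher or lower on the log2(FPKM + 1) scale, where 8.86% of the measured genes were: 3.90% higher and 4.97% lower. Measured here are the 14215 genes that reached 1 FPKM in either library. No member reached 2-fold, which 2.02% of the measured genes did. By the library totals, OPA1 and YME1L1 were the only members whose exact 95% counting interval of the ratio lay off 1, both on the lower side, and such intervals lay off 1 for 45.0% of all measured genes, below it for 25.4% and above it for 19.6%. The intervals hold counting error alone, reads that carry no molecular identifier can be copies of 1 molecule, and what is compared is 2 libraries and not 2 conditions. With DESeq2 size factors or the median ratio set to 1, MFN2 and TFAM were added above 1, which made 4 of 10 beside 44.2% of all measured genes. By the library totals 3 members were above the control and 7 below, beside 54.8% of all measured genes below, while under those 2 scalings the split was 5 and 5. The median log2 difference was -0.04 over the 10 genes and -0.03 over all measured genes. Their SD around the mean was 0.10 on that scale, against 0.37 for all measured genes. The members had 368 to 3118 counts in a library. The measured genes were not matched to them in count, so the 2 spreads are not like for like. The same limit holds for the shares of all measured genes given above and below. In RNA of a whole culture, a lower share of cells that make a transcript and less of it per cell cannot be told apart.

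**Figure D1:**
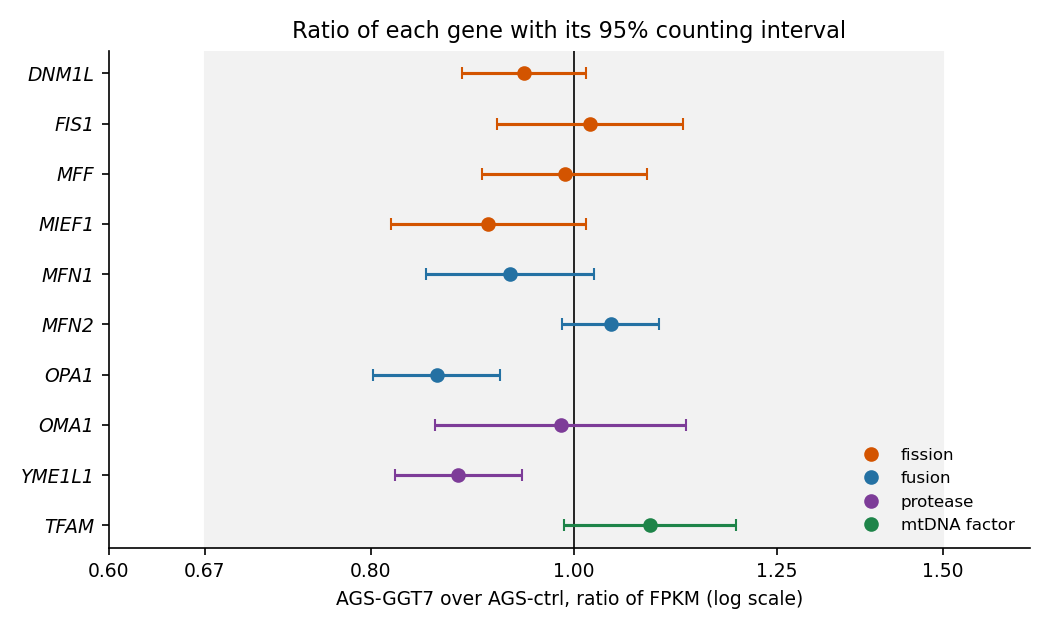
Ratio of FPKM, AGS-GGT7 over AGS-ctrl, on a log axis, for the 10 genes by role; points are the ratio of 1 library to 1 library and bars the exact 95% counting interval, and the grey band spans 1.5-fold either way. All 10 points and their intervals lie inside the band, from OPA1 at 0.86 to TFAM at 1.09.

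DNM1L (ENSG00000087470, GRCh38 chromosome 12, 32679200 to 32745650, plus strand) encodes the GTPase that carries out fission. It had 1445 counts in the AGS-GGT7 library and 2000 in the AGS-ctrl library, or 6.96 FPKM in AGS-GGT7 cells and 7.35 FPKM in AGS-ctrl cells. The ratio was 0.947 with a counting interval from 0.884 to 1.01, so the 2 libraries were not separated by more than counting error. With 11 protein-coding transcripts annotated in GENCODE 29, DNM1L is known for splice forms with different partners, and the gene-level counts do not separate them.

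The adaptors that receive DRP1 at the outer membrane stood as close to the control. FIS1 (ENSG00000214253, chromosome 7, 101239458 to 101252316, minus strand), a small tail-anchored protein that also binds regulators of RAB7, had 675 counts in AGS-GGT7 cells and 869 in AGS-ctrl cells. This corresponds to 15.2 FPKM in AGS-GGT7 cells and 14.98 FPKM in AGS-ctrl cells, a ratio of 1.02 (0.919 to 1.13). MFF (ENSG00000168958, chromosome 2, 227325151 to 227357836, plus strand), the main DRP1 receptor in mammalian cells, had 842 counts in AGS-GGT7 cells and 1114 in AGS-ctrl cells. Its 4.67 FPKM in AGS-GGT7 cells and 4.71 FPKM in AGS-ctrl cells made it, by the library totals, the member closest to the control, at a ratio of 0.990 (0.905 to 1.08). MIEF1 (ENSG00000100335, chromosome 22, 39499432 to 39518132, plus strand), whose product MiD51 gathers DRP1 in an inactive or active state depending on bound nucleotide, had 583 counts in AGS-GGT7 cells and 839 in AGS-ctrl cells. It was at 3.21 FPKM in AGS-GGT7 cells and 3.53 FPKM in AGS-ctrl cells, a ratio of 0.911 (0.818 to 1.01). No adaptor was separated from the control by more than counting error, and their summed FPKM was 23.1 in AGS-GGT7 cells and 23.2 in AGS-ctrl cells. FIS1 made up 65.9% of that sum in AGS-GGT7 cells and 64.5% in AGS-ctrl cells.

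The mitofusins MFN1 and MFN2, GTPases of the outer membrane that tether and fuse neighbouring mitochondria, lay on either side of the control. MFN2 (ENSG00000116688, chromosome 1, 11980181 to 12013514, plus strand), which also links mitochondria to the endoplasmic reticulum, had 2478 counts in AGS-GGT7 cells and 3118 in AGS-ctrl cells. With 30.4 FPKM in AGS-GGT7 cells and 29.2 FPKM in AGS-ctrl cells it was the highest member in both libraries, and the ratio was 1.04 (0.988 to 1.10). With DESeq2 size factors in place of the library total, the ratio of MFN2 was 1.06 and its interval lay just above 1 (1.0048 to 1.12). MFN1 (ENSG00000171109, chromosome 3, 179347692 to 179394931, plus strand) had 797 counts in AGS-GGT7 cells and 1120 in AGS-ctrl cells. Its level was 8.70 FPKM in AGS-GGT7 cells and 9.33 FPKM in AGS-ctrl cells, a ratio of 0.932 (0.850 to 1.02). Within each library, MFN1 stood at 0.286 of MFN2 in AGS-GGT7 cells and at 0.319 of MFN2 in AGS-ctrl cells, in FPKM. The first of these proportions was 0.895 of the second, with a counting interval from 0.805 to 0.996, and this comparison does not depend on how the libraries are scaled. The 2 mitofusins together came to 39.2 FPKM in AGS-GGT7 cells and 38.6 FPKM in AGS-ctrl cells.

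OPA1 (ENSG00000198836, chromosome 3, 193593144 to 193697823, plus strand), the dynamin-like GTPase that fuses inner membranes and keeps cristae narrow, was the member farthest from the control. It had 1331 counts in the AGS-GGT7 library and 2027 in the AGS-ctrl library. The level was 6.52 FPKM in AGS-GGT7 cells and 7.58 FPKM in AGS-ctrl cells, 13.95% lower, with a ratio of 0.860 (0.802 to 0.923). The interval stayed below 1 under TMM, DESeq2, median-ratio and upper-quartile scaling, where the ratio ranged up to 0.877. By the library totals 48.3% of all measured genes, not matched to OPA1 in count, were at least as far from the control on the log2(FPKM + 1) scale. OPA1 has 15 annotated protein-coding transcripts, and the exons that hold cleavage sites for OMA1 and YME1L1 cannot be followed in a gene-level count.

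Of the 2 proteases that process OPA1, YME1L1 stood below the control and OMA1 stood level with it. YME1L1 (ENSG00000136758, chromosome 10, 27110112 to 27155266, minus strand), the ATP-dependent protease that makes short OPA1 in resting cells, had 1345 counts in AGS-GGT7 cells and 2001 in AGS-ctrl cells. It was at 12.2 FPKM in AGS-GGT7 cells and 13.8 FPKM in AGS-ctrl cells, 11.9% lower, with a ratio of 0.881 (0.821 to 0.944). The interval of YME1L1 stayed below 1 under the same 4 scalings. By the library totals 52.9% of all measured genes, not matched to YME1L1 in count, were at least as far from the control. OMA1 (ENSG00000162600, chromosome 1, 58415384 to 58546802, minus strand), the protease that cleaves OPA1 when mitochondria lose their membrane potential, had the fewest counts of the 10 genes, 368 in AGS-GGT7 cells and 489 in AGS-ctrl cells. Its level was 7.14 FPKM in AGS-GGT7 cells and 7.24 FPKM in AGS-ctrl cells, a ratio of 0.986 (0.859 to 1.13), so a difference of less than about 14.7% could not have been told from counting error. OMA1 stood at 0.587 of YME1L1 in AGS-GGT7 cells and at 0.524 in AGS-ctrl cells, in FPKM, and the first proportion was 1.12 times the second with an interval that includes 1 (0.959 to 1.31).

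TFAM (ENSG00000108064, chromosome 10, 58385022 to 58399221, plus strand), which coats mitochondrial DNA and starts its transcription, was the member farthest above the control. It had 814 counts in AGS-GGT7 cells and 981 in AGS-ctrl cells, or 11.6 FPKM in AGS-GGT7 cells and 10.6 FPKM in AGS-ctrl cells. The ratio of 1.09 had an interval that just includes 1 (0.9896 to 1.19) by the library totals. With DESeq2 size factors the ratio of TFAM was 1.11 and the interval lay above 1 (1.007 to 1.22). By the library totals 67.6% of all measured genes, not matched to TFAM in count, were at least as far from the control. That share was not computed with DESeq2 size factors.

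The promoters of OPA1, OMA1 and TFAM, the member with the lowest ratio, one level with the control and the one with the highest ratio, share a match to the core motif of NRF1, a transcription factor known to activate nuclear genes for mitochondria, TFAM among them. Their windows, 250 bases before to 50 after the RefSeq start of the gene (GRCh38.p14), are shown because of this match, with it in capitals. They lie at chr3:193592958-193593257 on the plus strand, chr1:58546677-58546976 on the minus strand and chr10:58385160-58385459 on the plus strand.
OPA1: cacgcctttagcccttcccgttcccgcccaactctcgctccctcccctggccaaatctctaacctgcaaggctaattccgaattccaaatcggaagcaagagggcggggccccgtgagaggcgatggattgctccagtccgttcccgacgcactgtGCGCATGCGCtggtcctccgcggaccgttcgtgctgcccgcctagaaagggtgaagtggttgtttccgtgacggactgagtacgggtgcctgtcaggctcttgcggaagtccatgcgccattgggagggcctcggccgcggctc
OMA1: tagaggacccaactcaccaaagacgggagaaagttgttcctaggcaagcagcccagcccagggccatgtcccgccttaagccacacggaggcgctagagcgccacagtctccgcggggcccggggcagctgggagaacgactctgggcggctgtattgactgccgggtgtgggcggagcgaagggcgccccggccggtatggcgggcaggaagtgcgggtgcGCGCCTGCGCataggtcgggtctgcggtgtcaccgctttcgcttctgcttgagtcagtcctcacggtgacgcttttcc
TFAM: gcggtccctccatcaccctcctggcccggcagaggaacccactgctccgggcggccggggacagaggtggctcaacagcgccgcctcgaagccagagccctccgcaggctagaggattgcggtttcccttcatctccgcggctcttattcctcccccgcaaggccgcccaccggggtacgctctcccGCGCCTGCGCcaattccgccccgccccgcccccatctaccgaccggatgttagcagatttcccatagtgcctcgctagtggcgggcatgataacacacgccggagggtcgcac
The motif searched, on both strands, was GCGCA, any base, then GCGC. Its first base lay at -94, -28 and -63 from the RefSeq start of OPA1, OMA1 and TFAM. None of these starts is the GENCODE 29 start of the gene coordinates given above. The TFAM window, from 58385160, lies wholly inside the gene given from 58385022. The motif occurs in 3 of the 9 member windows at hand and in 5.78% of all 35116 promoter windows of this length. The ETS core CCGGAAG, which the NRF2 subunit GABPA can bind, was found in the windows of FIS1, MIEF1 and MFN1 and in 10.3% of all windows. The GC box GGGCGG lay in 8 of the 9 and in 45.0% of all windows, and the CCAAT box in 6 of the 9 and 34.6%. The windows of OPA1, OMA1 and TFAM held 63%, 66% and 68% G and C, against a median of 58.7% over all windows. The 9 member windows ran from 53.3% (MFF) to 71.3% (MFN2), and the shares of all windows were not matched for base composition. In TFAM the last base of the NRF1 match is also the first base of a CCAAT box. No member window held AAGATGGC (YY1), CACGTG (the E-box of TFE3 and TFEB) or TGATGNAA (the ATF4 composite element), which occurred in 2.89%, 7.26% and 3.62% of all windows. The 3 genes that share the NRF1 match were at 0.860, 0.986 and 1.09 of the control. The proportion of OPA1 to OMA1 in AGS-GGT7 cells was 0.873 of that in AGS-ctrl cells (0.748 to 1.02). For OMA1 to TFAM it was 0.907 (0.767 to 1.07). Both intervals include 1, while that of OPA1 to TFAM did not (0.791, 0.704 to 0.890). YME1L1 was the member without a window. A match is a description of the sequence only.

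**Figure D2:**
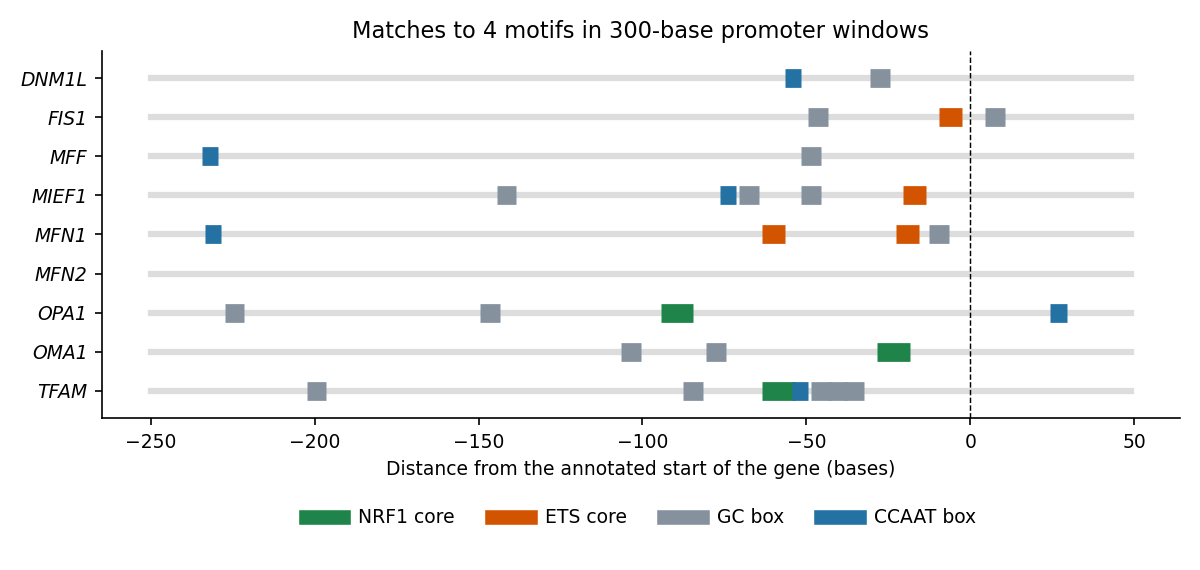
Matches to 4 motifs, on either strand, along the promoter windows of 9 members, by distance in bases from the annotated start of the gene (dashed line at 0). The NRF1 core is marked in OPA1, OMA1 and TFAM, the ETS core in FIS1, MIEF1 and MFN1, and MFN2 holds none of the 4.

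Levels per length put MFN2 first and MIEF1 last in both libraries. In FPKM the order in AGS-GGT7 cells ran MFN2, FIS1, YME1L1, TFAM, MFN1, OMA1, DNM1L, OPA1, MFF and MIEF1. There, YME1L1 and TFAM, OMA1 and DNM1L, and DNM1L and OPA1 were neighbours that counting error did not separate. The order in AGS-ctrl cells was the same for the first 5 and the last 2, with OPA1, DNM1L and OMA1 between them. In that library FIS1 and YME1L1, OPA1 and DNM1L, and DNM1L and OMA1 were not separated. Thus OPA1 ranked 8 in AGS-GGT7 cells and 6 in AGS-ctrl cells, among 3 genes whose levels lay close together. These levels rest on the authors' length: the length implied by count and FPKM was 1.22 times the exonic length in GENCODE 29 for TFAM but 2.77 times for DNM1L and 2.85 times for MFF. With CPM (counts scaled to the library total) per exonic kilobase instead, DNM1L ranked 3 in both libraries, while MFN2 and FIS1 kept the first 2 places and MIEF1 the last. MFN2 then stood at 48.4 CPM per kilobase in AGS-GGT7 cells and 46.5 in AGS-ctrl cells. The length drops out of every ratio of 1 gene between the libraries.

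**Figure D3:**
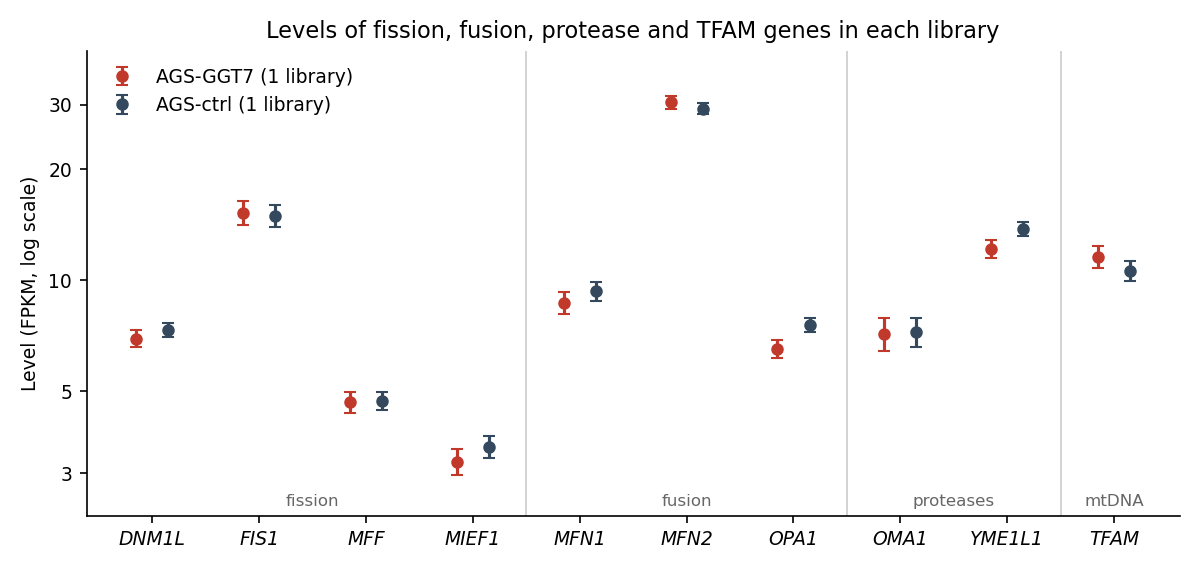
Level of each gene in FPKM (log axis) in the AGS-GGT7 library (red, left) and the AGS-ctrl library (dark, right), 1 library each, with exact 95% Poisson counting intervals. The genes span 3.21 to 30.4 FPKM in AGS-GGT7 cells, about the same range as in AGS-ctrl cells (3.53 to 29.2), and the intervals of a gene lie apart only for OPA1 and YME1L1.

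Proportions between members are free of library scaling. FIS1 stood at 2.19 times DNM1L in AGS-GGT7 cells and 2.04 times in AGS-ctrl cells, MFF at 0.671 and 0.641, and MIEF1 at 0.462 and 0.480, in FPKM. The ratios of these proportions were 1.08 (0.9505 to 1.22), 1.05 (0.934 to 1.17) and 0.962 (0.846 to 1.09), so no adaptor differed against DNM1L by more than counting error. Over all 45 pairs of the 10 genes, the counting interval lay off 1 in 14, and each of these held OPA1, YME1L1, MFN2 or TFAM. MFN2 or TFAM was in 10 of the 14 and OPA1 or YME1L1 in 8. The widest of the pairs was OPA1 to TFAM, at 0.564 in AGS-GGT7 cells and 0.713 in AGS-ctrl cells, a ratio of proportions of 0.791 (0.704 to 0.890). OPA1 and YME1L1 kept their proportion, 0.535 in AGS-GGT7 cells and 0.548 in AGS-ctrl cells, within counting error (0.977, 0.885 to 1.08). The pairs share genes and libraries and are not independent of one another. No such share was computed for pairs of other measured genes, so the 14 of 45 has no background. The 4 genes named are those whose own intervals lay off 1 with DESeq2 size factors, from the same counts. In summed counts by the library totals, the 4 fission genes had 0.963 of the control (0.922 to 1.01) and the 3 fusion genes 0.963 (0.927 to 1.0009). The 2 protease genes had 0.901 (0.847 to 0.959) and all 10 members 0.961 (0.937 to 0.986), both intervals below 1. These sums depend on library scaling and were not computed under the other scalings.

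Reads shared with other genes can touch several of these values, and the sources used here do not say whether counting used the strand, which could separate opposite genes only. YME1L1 shares 443 exonic bases, 6.04% of its exonic length, with MASTL on the opposite strand, which had 733 counts in AGS-GGT7 cells and 824 in AGS-ctrl cells. On the same strand, OMA1 shares 257 bases with DAB1, 6.91% of its exonic length, and MIEF1 213 with AL022312.1. On the opposite strand, OPA1 shares 208 with OPA1-AS1, DNM1L 202 with AC084824.4 and MFF 48 with AC097662.1. The last 2 of these had at most 8 counts in either library. Processed pseudogenes with at least 90% identity over at least 10% of the longest transcript were found for MFN1 (34.7% of the transcript), MFF (18.5%), YME1L1 (15.8%) and TFAM (12.9%). The MFF copy had 2 counts in AGS-GGT7 cells and 0 in AGS-ctrl cells. For MFN1, YME1L1 and TFAM, reads divided with these copies would make the values uncertain.

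Around these genes, few partner genes of the same pathways passed 1.5-fold. On the log2(FPKM + 1) scale, 2 of 172 measured genes in 9 lists were 1.5-fold or more higher (MPV17 and MT-ND5). A further 3 were 1.5-fold or more lower (RRM2B, MYC and TIMM13), 2.91% in all beside 8.86% of all measured genes. The 1 FPKM added on that scale draws low levels together. SPIRE1, MTX3, EXOG, FASTKD3 and PPARGC1B therefore did not pass, although their FPKM ratios were past 1.5-fold. The counting intervals of the 172 genes lay above 1 for 35 and below 1 for 48. They lay off 1 for 48.3%, beside 45.0% of all measured genes (19.6% above, 25.4% below). By list, intervals lay above and below 1 for 2 and 10 fission partners, 2 and 5 fusion partners, and 1 and 4 cristae genes. For quality control they numbered 6 and 4, for replication and maintenance 10 and 8, and for transcription 5 and 7. For biogenesis they numbered 3 and 5, for mitochondrial mRNAs 4 and 2, and for import 3 and 6. Some genes are in more than 1 list. Of the 26 measured fission partners none passed 1.5-fold on the log2(FPKM + 1) scale, and their median log2 difference was -0.03. SPIRE1, which nucleates actin at sites of constriction, had an FPKM ratio of 1.52 (1.35 to 1.71) and the motor gene KIF5B 1.11, while the ubiquitin ligase gene MUL1, MTFR1L and the deubiquitinase gene USP30 had ratios of 0.75, 0.77 and 0.79. None of the 17 fusion partners passed the rule either, with a median of -0.06. MIGA2, listed as FAM73B, which acts on mitofusins through phospholipids, stood at 0.67, the prohibitin PHB at 0.82 and VAT1 at 0.92, and PHB2 and HUWE1 at 1.12 and 1.07. PHB and PHB2 form 1 ring-shaped complex that stabilises long OPA1, and they lay on opposite sides of the control.

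Inner membrane and matrix quality control showed 0 of 27 genes past 1.5-fold and a median of 0.02. The matrix protease gene LONP1, which degrades TFAM that is not bound to DNA, stood at 1.27 of the control (1.18 to 1.36), with the chaperone genes DNAJA3 and TRAP1 at 1.26 and 1.253. HSPE1 stood at 0.76, and DELE1 (listed as KIAA0141) and EIF2AK1, which relay the cleavage of DELE1 by OMA1 to the stress response of the cytosol, at 0.87 (0.781 to 0.962) and 0.91 (0.873 to 0.947). In the 12 measured genes of the cristae-organising MICOS complex and its partners none passed 1.5-fold on the log2(FPKM + 1) scale. Their median was -0.04. CHCHD3, a core subunit of the complex that acts with OPA1 at cristae junctions, was at 9.65 FPKM in AGS-GGT7 cells and 14.3 FPKM in AGS-ctrl cells, a ratio of 0.67 (0.614 to 0.739). MTX3 and SAMM50 were at 0.66 and 0.86 and APOOL at 1.41. Of the 21 genes of import and the outer membrane, with a median of -0.09, 1 was past 1.5-fold: TIMM13, a chaperone of the space between the membranes, at 0.44 (0.358 to 0.542). TOMM40L and TIMM17A were at 0.77 and 0.78, and TIMM44, TOMM7 and TOMM20 at 1.20, 1.20 and 1.06.

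Genes that work with TFAM on mitochondrial DNA went both ways. Among 29 measured genes of replication and maintenance, with a median of 0.01, MPV17 passed 1.5-fold upward and RRM2B downward on the log2(FPKM + 1) scale. MPV17, an inner membrane protein needed to keep mitochondrial DNA copies, had 430 counts in AGS-GGT7 cells and 282 in AGS-ctrl cells, a ratio of 2.00 (1.72 to 2.33). RRM2B, a ribonucleotide reductase subunit that supplies nucleotides outside S phase, had 143 counts in AGS-GGT7 cells and 414 in AGS-ctrl cells, a ratio of 0.45 (0.372 to 0.549). The helicase TWNK, listed as C10orf2, and the primase PRIMPOL were at 1.46 and 1.41, the nucleases EXOG and APEX1 at 0.55 and 0.75. None of 23 transcription and RNA-processing genes passed 1.5-fold on that scale, and the median was -0.04. PNPT1, FASTKD2 and REXO2 had FPKM ratios of 1.20, 1.16 and 1.14, and FASTKD3, MTERF1 and FASTKD1 of 0.65, 0.71 and 0.75. Of 17 biogenesis regulators 1 passed on the log2(FPKM + 1) scale, MYC at an FPKM ratio of 0.39 (0.364 to 0.423), and the median was -0.04. The coactivator gene PPARGC1B, the GABPA partner GABPB1 and YY1 were at 1.64, 1.28 and 1.09, and the AMP-activated kinase gene PRKAA1 and CREB1 at 0.76 and 0.80. For the transcripts that TFAM helps to make, 6 of 13 mRNAs of the mitochondrial genome were analysed, with a median of 0.13. MT-ND5, MT-ND1 and MT-ND2 were at 1.60, 1.40 and 1.16, and MT-ND6 and MT-CO1 at 0.85 and 0.98, so they did not lie on 1 side of the control. Nuclear copies of mitochondrial genes can share such reads, which leaves these values uncertain.

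**Figure D4:**
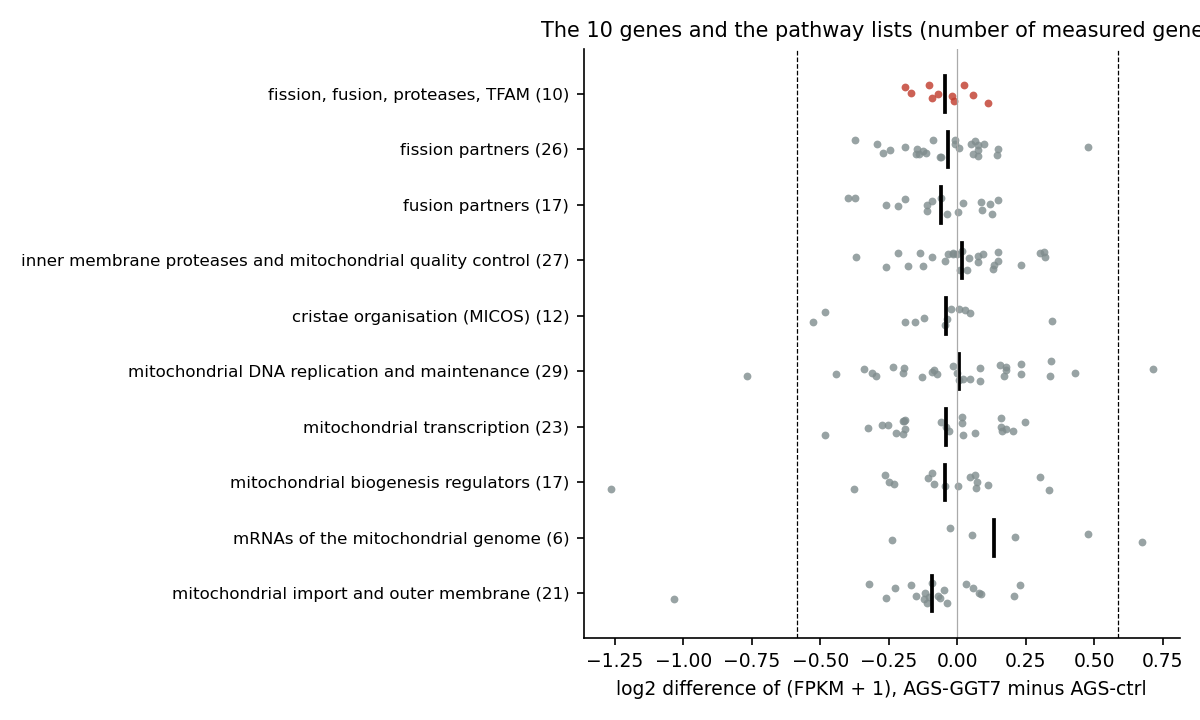
The log2 difference of (FPKM + 1), AGS-GGT7 minus AGS-ctrl, for each measured gene of the 10 members (red) and of 9 pathway lists (grey), with the number of genes in brackets; black bars are medians, dashed lines 1.5-fold, and the vertical jitter carries no value. The 10 members span -0.19 to 0.11, and the points past the dashed lines belong to other genes.

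**Figure D5:**
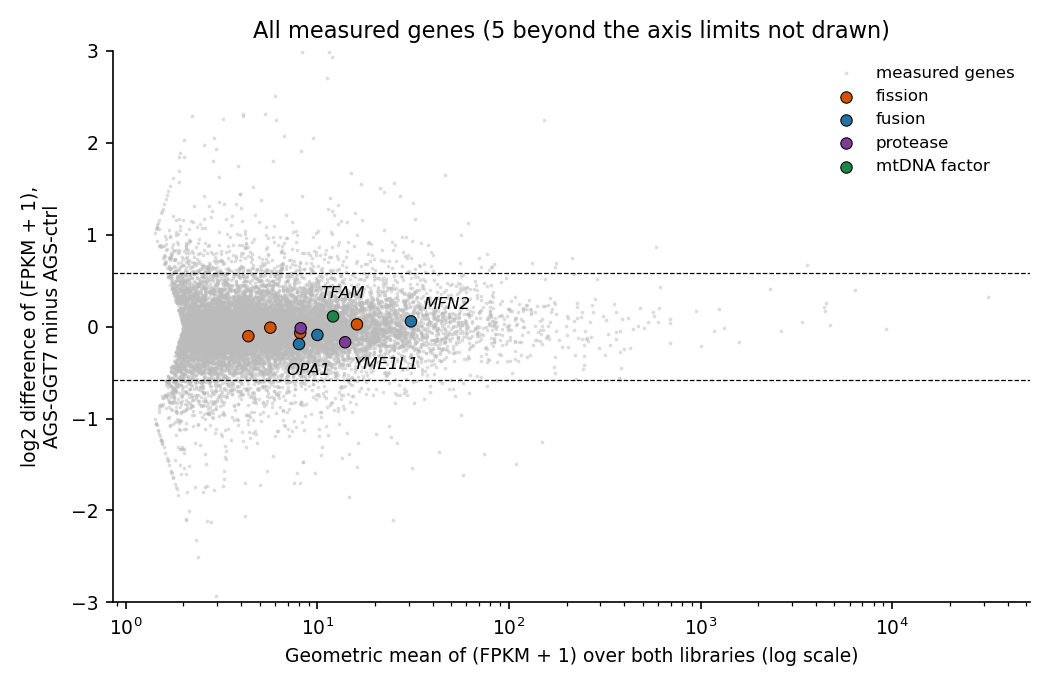
The log2 difference of (FPKM + 1), AGS-GGT7 minus AGS-ctrl, against the geometric mean of (FPKM + 1) over both libraries (log axis) for 14215 measured genes (grey) and the 10 members (coloured by role); dashed lines mark 1.5-fold and 5 genes lie beyond the axis limits. The members lie in the middle of the cloud, from OPA1 at -0.19 to TFAM at 0.11.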

How the data were processed

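Total RNA of AGS-GGT7 and AGS-ctrl cells was made into standard Illumina libraries from 1 ug, per the labels' protocols, 1 library per group. The deposited table holds counts and FPKM per gene, per the file headers. Counts in all intact rows of the deposited table are exactly whole. They were handled as estimated counts as deposited by the authors, because of a broken row, and 2 of 23378 lines were left out. HISAT2, StringTie 1.3.0, edgeR and GRCh38 are named, without roles, in the submitters' processing notes, and the sources used here give neither annotation nor counting tool.

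In 23 rows the symbol had turned into a date and was replaced through the gene ID (23165 of 23376 IDs matched GENCODE 29), and rows sharing 1 of 31 symbols were summed. Ratios are of FPKM, which equal ratios of counts per library total. Intervals are exact conditional (Clopper-Pearson) 95% intervals. Size was counted on log2(FPKM + 1) among genes reaching 1 FPKM in either library, and no test was run. The floor taken for 0 counts was 3 counts, or 0.292 CPM in the AGS-GGT7 and 0.223 CPM in the AGS-ctrl library. It states the depth only and did not enter the ratios or intervals.

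The members and lists were chosen with earlier results of these data known. Named are the members, GGT7 and, from each list, up to 3 genes each way by ratio whose interval lies off 1, leaving out genes already named; others were named after their values were seen. A gene that this rule takes is not reported here. Alternatives were TMM (edgeR 4.0.16), DESeq2 1.42.0 size factors, median-ratio and upper-quartile scaling, pseudocounts of 0.1 and 5, no filter or 5 FPKM, rows as deposited, other folds, and exonic length. Copies were sought with BLAST 2.17.0. Promoters are from RefSeq, GRCh38.p14. The interval calculation was tested on simulated data with both library totals. Python 3.11.15, scipy 1.17.1 and R 4.3.3 were used.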

Additional observations from a re-analysis of the deposited data

How the results depend on the processing

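No paired analysis was possible because each group held 1 library, and for the same reason no replicate could be left out. The scalings moved every ratio by at most a factor of 1.02, which is less than the counting error of any member. Each of the 10 member ratios therefore had to stay within its counting interval under all 4 scalings. With 1 row per member, using rows as deposited could not change these ratios. The number of members past 1.5-fold was 0 under every alternative, including a smaller fold and the 2-fold rule. The number with an interval off 1 was 2 under the library total, TMM, upper quartile, both filters and rows as deposited, and 4 with DESeq2 size factors and also 4 with the median ratio set to 1, where MFN2 and TFAM joined above 1. Of all genes counted, 44.2% had such an interval under both of these scalings, 30.7% with no filter and 58.7% at 5 FPKM, where 8 members are counted. Pseudocounts of 0.1 and 5 moved no member's log2 difference beyond its counting error. With exonic length in place of the authors' length, FIS1 stood at 1.90 and MIEF1 at 0.389 of DNM1L in AGS-GGT7 cells. The median of the mitochondrial transcription list was 0.0906 at 5 FPKM in the higher library, where fewer genes are counted, while the other 89 medians moved by less than 0.1. The depth limits what can be seen: counting error alone reached from 5.45% of the ratio for MFN2 to 14.7% for OMA1, and variation between cultures was not measured.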

Other observations

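Relatives of the members were looked at after the values of the members were known. DNM2, the general dynamin that has been placed at late steps of fission, was at 5.03 FPKM in AGS-GGT7 cells and 6.39 FPKM in AGS-ctrl cells, a ratio of 0.788 (0.734 to 0.846), which is lower than the ratio of DNM1L (0.947). The neuronal dynamins DNM1 and DNM3 were under 1 FPKM in both libraries, with 42 counts in AGS-GGT7 cells and 101 in AGS-ctrl cells for DNM1, and 25 and 69 for DNM3. Their ratios were 0.545 (0.371 to 0.788) and 0.475 (0.288 to 0.760). Without the filter on level, which DNM1 and DNM3 do not pass, an interval below 1 was found for 17.4% of all genes. MIEF2, whose product MiD49 is the partner of MiD51, had 98 counts in AGS-GGT7 cells and 101 in AGS-ctrl cells, and its ratio of 1.27 had an interval that includes 1 (0.953 to 1.70).

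Of the factors whose motifs were searched in the promoters, NRF1 was at 0.918 (0.770 to 1.09), GABPA at 0.966 (0.848 to 1.10) and YY1 at 1.09 (1.02 to 1.16) of the control. NRF1 was at 2.78 FPKM in AGS-GGT7 cells and 3.03 FPKM in AGS-ctrl cells. PPARGC1A, a coactivator of NRF1 that is known to raise TFAM, was at 4.21 FPKM in AGS-GGT7 cells and 5.25 FPKM in AGS-ctrl cells, a ratio of 0.802 (0.727 to 0.885), while PPARGC1B went the other way at 1.64 (1.31 to 2.05).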
